A study of Homo sapiens with 2 samples.

Results

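Annexins, S100 proteins and copines are families of proteins that respond to calcium. The genes were taken by symbol, as ANXA, S100A or CPNE followed by a number, together with S100P. On the Affymetrix Human Genome U133 Plus 2.0 array 55 of 54613 probe sets were annotated to 1 such gene and to no other, and they covered 36 genes, of which 11 were annexins, 16 S100 genes and 9 copines. A probe set is a group of short probes whose signals are combined to 1 value. ANXA8 was not included, because its probe sets were annotated to ANXA8L1 as well. Of the 55 probe sets, 21 read annexins, 20 S100 genes and 14 copines.

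RNA was from U87, an established human glioblastoma cell line kept in serum, and both arrays came from this line. Cells received either a non-silencing control siRNA or HOXD9 siRNA-2, each at 50 nM and with the same lipid reagent, and RNA was taken on Day 2. The study asked which transcripts differ when HOXD9, a homeobox transcription factor gene, is silenced. There was 1 array per condition, so the conditions could not be tested against replicate error, and every ratio below sets 1 array against the other. In such bulk RNA, fewer cells of a kind and less RNA per cell cannot be told apart.

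An annexin binds phospholipid membranes when calcium is present, through a core built of repeats, and annexins are known for membrane traffic and for sealing damaged plasma membrane. S100 proteins are small EF-hand calcium sensors that work mostly as dimers and bind other proteins, annexins among them. Copines carry C2 domains, which bind membranes in a calcium-dependent way, and a domain related to that of integrins and von Willebrand factor. In gliomas the S100 family is best known for S100B, a glial marker whose symbol lies outside the rule.

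Values are linear signals as deposited, and log2 ratios are HOXD9 siRNA over control siRNA. The arrays differed in scale, with a median signal of 22.5 for control siRNA and 18.3 for HOXD9 siRNA, and centering each array on its median adds 0.30 to every log2 ratio. A filter retained probe sets with a mean signal of at least 19.8, the median over the array, and a gene was represented by its brightest kept probe set. Background was set at 18.4, the highest signal of 27 probe sets for Bacillus subtilis control transcripts (11.4 on the control siRNA array). Signals of different genes were not compared with each other, since probe sets differ in how well they bind. Replicate error could not be measured. As a yardstick of another kind, the spread between probe sets of 1 gene within these 2 arrays was used. It holds no error between cultures, transfections or arrays. The pooled SD on the log2 ratio was 0.41 (6081 genes). This SD was 0.63 for dim probe sets and 0.17 for bright ones, when kept probe sets were divided by signal into dim, middle and bright parts of equal size.

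On its brighter probe set HOXD9 itself went from 19.7 in control cells to 5.58 in silenced cells (at least 1.07-fold lower against background), and on the other from 9.33 to 11.4. Only the first of these signals was above background, so the arrays give little reading of the silencing. The study measured the silencing separately, by qRT-PCR. Of 9 glioma and glial markers, VIM, CD44, TNC, CHI3L1 and NES were kept, whereas GFAP, OLIG2 and S100B stayed within background on both arrays and SOX2 did so on all but 1 signal of 19.2. None of 4 blood cell markers was kept. Of other cell types, 3 of 5 epithelial, 1 of 4 endothelial and 3 of 4 neuronal markers were kept. Among the kept ones, the neuronal SYT1 alone was past 2-fold, and the part of other cell types in the ratios below was not tested. S100B, the S100 gene usually read as glial, gave no signal over 3.73.

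In the 3 families 35 probe sets and 21 genes passed the filter, namely 7 annexins, 8 S100 genes and 6 copines. Both signals lay above background on 34 of the 35. All 20 remaining probe sets stayed within background on both arrays, with signals from 1.04 to 17.4, and 15 genes were read by such probe sets alone. These were ANXA3, ANXA9, ANXA10 and ANXA13, S100A1, S100A5, S100A7, S100A8, S100A9, S100A12, S100A14 and S100P, and CPNE4, CPNE5 and CPNE6. No fold difference is given for them, although 12 of the 20 probe sets had measured ratios past 2-fold, since 2 signals within background have no order. Against the control siRNA array's own 11.4, some control siRNA signals would lie above background. These are ANXA9 (12.1), the dimmest probe set of CPNE8 (14.7), and S100A9 and S100A14, given below.

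**Figure D1:**
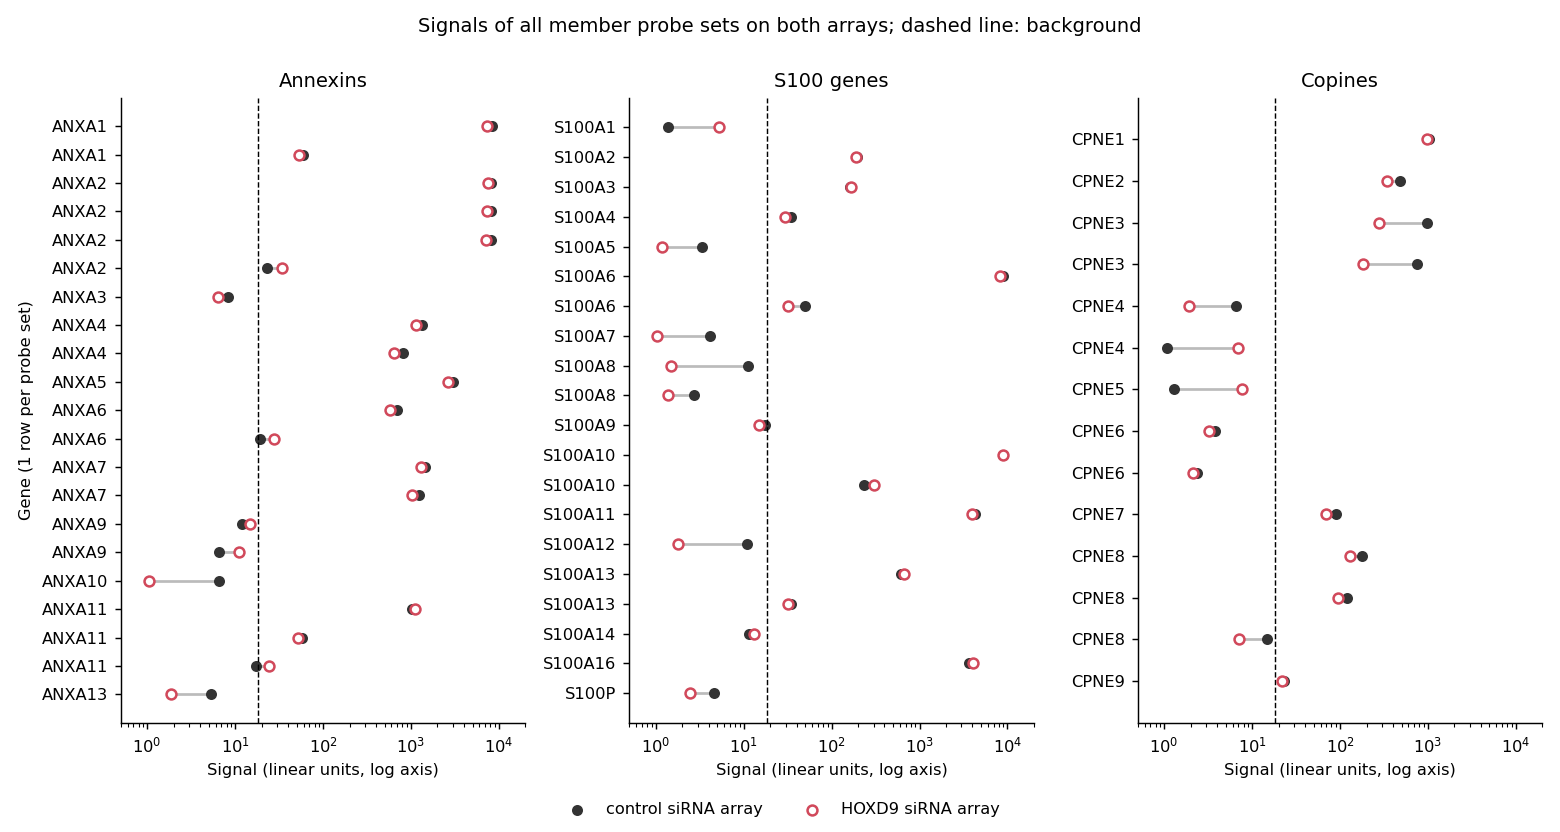
Signal (x axis, linear units on a log axis) of each of the 55 probe sets (y axis, named by gene) on the control siRNA array (filled) and the HOXD9 siRNA array (open), with gray lines joining both. The dashed line is the background of 18.4. Right of the line both CPNE3 probe sets show the widest gaps, and the wide gaps left of it are between signals within background.

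Of the 16 S100 genes 15 lie in a cluster on chromosome 1, and S100P lies elsewhere. In chromosomal order the cluster opens with S100A10 and S100A11, which were detected on both arrays. This order lists only genes named S100A and a number, and genes of other names between them were left out. The next 4 in the list, S100A9, S100A12, S100A8 and S100A7, were all within background. S100A8 and S100A9 encode the subunits of calprotectin, abundant in neutrophils, S100A12 is a further protein of neutrophils and S100A7 encodes psoriasin of skin. The rest of the cluster alternated, with S100A6, S100A4, S100A3, S100A2, S100A16 and S100A13 detected and S100A5, S100A14 and S100A1 not. With 18.4 as background for both arrays, detection of each of these genes was the same on both. Against the control siRNA array's own 11.4, the control siRNA signals of S100A9 (17.4) and S100A14 (11.6) would also lie above background.

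**Figure D2:**
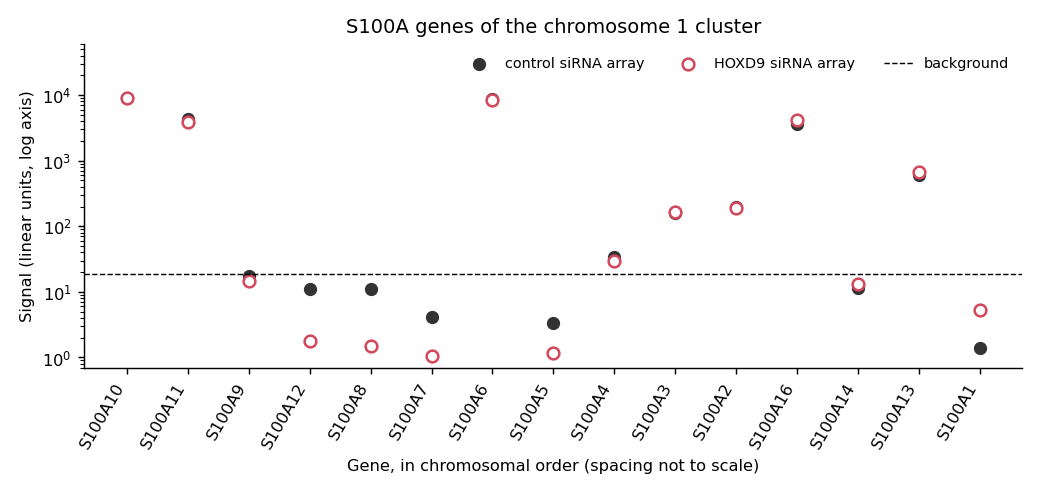
Signal (y axis, linear units on a log axis) of the brightest probe set of 15 S100A genes in their order along chromosome 1 (x axis) with control siRNA (filled) and HOXD9 siRNA (open). The dashed line is the background of 18.4. The run S100A9, S100A12, S100A8 and S100A7 lies below it on both arrays, with detected S100A genes before and after it in this order.

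Start site sequences are shown for 2 detected and 2 undetected S100 genes, because detection varied between S100A genes in this cluster. These genes were chosen with their signals known. RefSeq promoter windows (GRCh38.p14) reach from 250 bases before to 50 bases after a start site and were found for 33 of the 36 genes. There was none for CPNE3, CPNE7 and ANXA13. Capitals mark TATAAA, the core of the TATA box, and GGGCGG, a GC box. Each line gives the 120 bases before the start, 5' to 3'. S100A6 (chr1:153535992-153536111 on the minus strand) and S100A11 (chr1:152037005-152037124 on the minus strand) were detected, and S100A9 (chr1:153357734-153357853 on the plus strand) and S100A7 (chr1:153460652-153460771 on the minus strand) were not.
S100A6: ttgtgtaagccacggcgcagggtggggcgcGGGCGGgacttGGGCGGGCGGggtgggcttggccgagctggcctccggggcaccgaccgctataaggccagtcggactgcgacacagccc
S100A11: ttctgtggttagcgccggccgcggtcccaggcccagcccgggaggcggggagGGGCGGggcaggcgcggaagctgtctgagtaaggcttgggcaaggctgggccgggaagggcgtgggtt
S100A9: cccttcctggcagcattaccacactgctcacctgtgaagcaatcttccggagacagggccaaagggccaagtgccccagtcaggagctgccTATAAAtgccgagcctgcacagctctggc
S100A7: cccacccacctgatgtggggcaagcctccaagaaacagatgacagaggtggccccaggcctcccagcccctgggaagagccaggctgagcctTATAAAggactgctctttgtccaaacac

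In S100A9 and S100A7 TATAAA begins 29 and 28 bases before the start. S100A6 holds GGGCGG at 3 places in the printed stretch, of which the last 2 overlap, and S100A11 at 1. Only exact matches were marked and counted. The stretch of S100A6 also holds tataag, which differs from TATAAA in its last base, at a like distance before the start. With both strands of the whole windows searched, TATAAA was found in 5 of the 8 undetected S100 genes (6 of 11 windows, as a gene can have several starts) and in 2 of the 8 detected ones (2 of 12 windows), S100A4 and S100A13. GGGCGG was found in 6 windows of the detected S100 genes and in 1 of the undetected ones. That 1 is the window of S100A9, where the match lies outside the printed stretch. Over the genome, 11.5% of 35116 windows held TATAAA and 45.0% GGGCGG. The median number of CpG was 3 in the windows of undetected S100 genes and 9.5 in those of detected ones, against 14 over all windows. In annexins GGGCGG was in 7 of 11 windows of detected and 0 of 3 windows of undetected genes, with a median of 25 and 5 CpG, while TATAAA was in 3 of 11 (ANXA1, ANXA2 and ANXA11) and 1 of 3. In copines GGGCGG was in 3 of 4 and 2 of 8 windows, with a median of 25 and 6 CpG, and TATAAA in 0 of 4 and 1 of 8. CPNE3 and CPNE7 had no window and are not in these counts. These matches describe letters in a window and were not tested against any measure of binding.

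HOXD9 silencing went with a large difference in 1 of the 21 genes, the copine CPNE3. No member was higher by more than 2-fold. Over all 11624 genes kept, 4.95% passed 2-fold downward and 0.516% upward, so that 1 of 21 is near the share of all genes, and the count says nothing particular about these families. With each array centered, the shares over all genes were 2.31% and 1.17%, and CPNE3 was again the only member past 2-fold. The median log2 ratio over the 21 genes was -0.14, beside -0.25 over all kept genes (0.16 and 0.05 after centering).

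**Figure D3:**
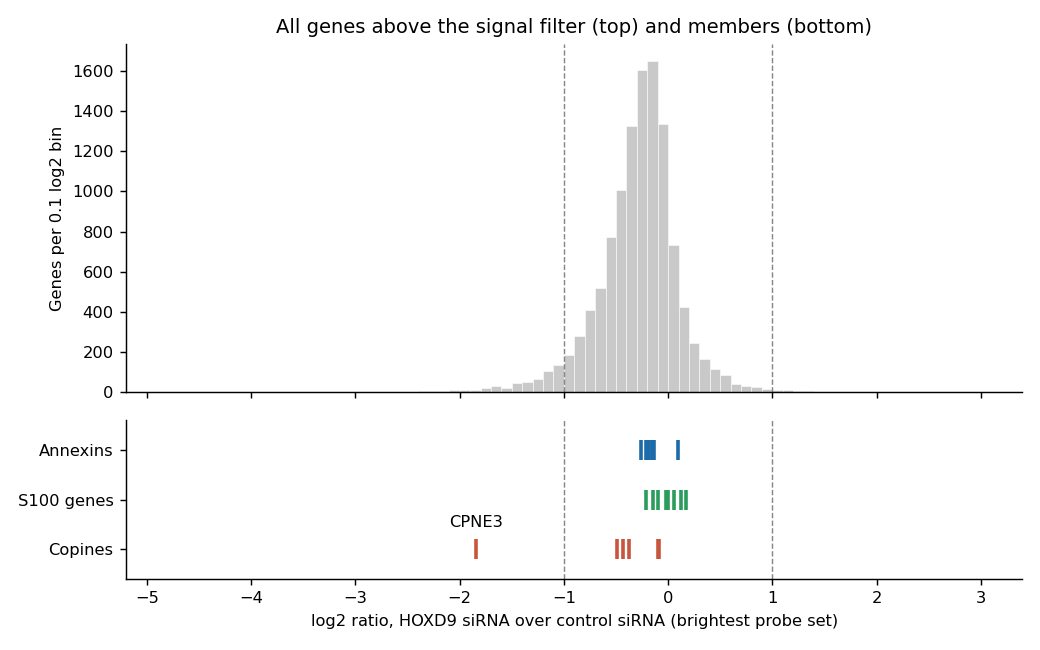
Number of genes (y axis, top) in bins of 0.1 by log2 ratio, HOXD9 siRNA over control siRNA (x axis), for the 11624 genes kept, and the 21 members by family (ticks, bottom). Dashed lines mark 2-fold. CPNE3 lies at -1.85 on its brightest probe set, while the other members lie between -0.49 and 0.17.

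CPNE3 is a copine that has been described as a partner of the receptor tyrosine kinase ERBB2. Its brighter probe set went from a signal of 986 to 274, or 27.8% of the control and a log2 ratio of -1.85. The other gave 751 and 184, or 24.6% and -2.03. All 4 signals lay far above background, and both probe sets fell to a like degree. Of 6081 genes with 2 or more kept probe sets, 1.04% were lower by more than 2-fold on every one. By the median of its probe sets CPNE3 ranked 14 from the lowest among these 6081, and by the brightest one 82 from the lowest among 11624. The gene was pointed out for its fall, so these ranks describe it and test nothing. After centering, its log2 ratios were -1.55 and -1.73.

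The other 5 copines kept had log2 ratios from -0.49 to -0.09, with a median of -0.38. By the median of its probe sets, -1.94, CPNE3 differed from that median by -1.56 on the log2 scale. Centering leaves this difference as it is, and it was -1.63 after quantile normalization or loess. CPNE2 went from 484 to 344, a log2 ratio of -0.49. CPNE8 gave 176 and 130 on its brighter probe set (-0.43), 120 and 94.5 on another (-0.34), and stayed within background on the last. For CPNE7 the signals were 90.7 and 69.9 (-0.38). On their brightest probe sets CPNE2, CPNE7 and CPNE8 were lower under all 4 scalings, by 0.02 to 0.22 once the arrays were brought to one scale. The second kept probe set of CPNE8 was at 0.002 after quantile normalization. CPNE1, a widely expressed copine, gave 1025 and 962 (-0.09), and CPNE9 gave 23.4 and 21.9 (-0.10), close to background. Both of these turned positive after scaling, at 0.14 to 0.21.

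Neighbors of CPNE3 and CPNE1 in the annotation were read as well. RMDN1, the protein-coding gene next to CPNE3, had log2 ratios of -0.51, -0.59 and -1.11 on its 3 kept probe sets. The first went from 679 to 475, a smaller difference than in CPNE3, and the last from 47.9 to 22.1. On the other side, no CNGB3 probe set was kept. The part of RMDN1 in the CPNE3 values was not tested. RBM12, which overlaps CPNE1, had log2 ratios of -0.50 and -0.40 beside the -0.09 of CPNE1.

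**Figure D4:**
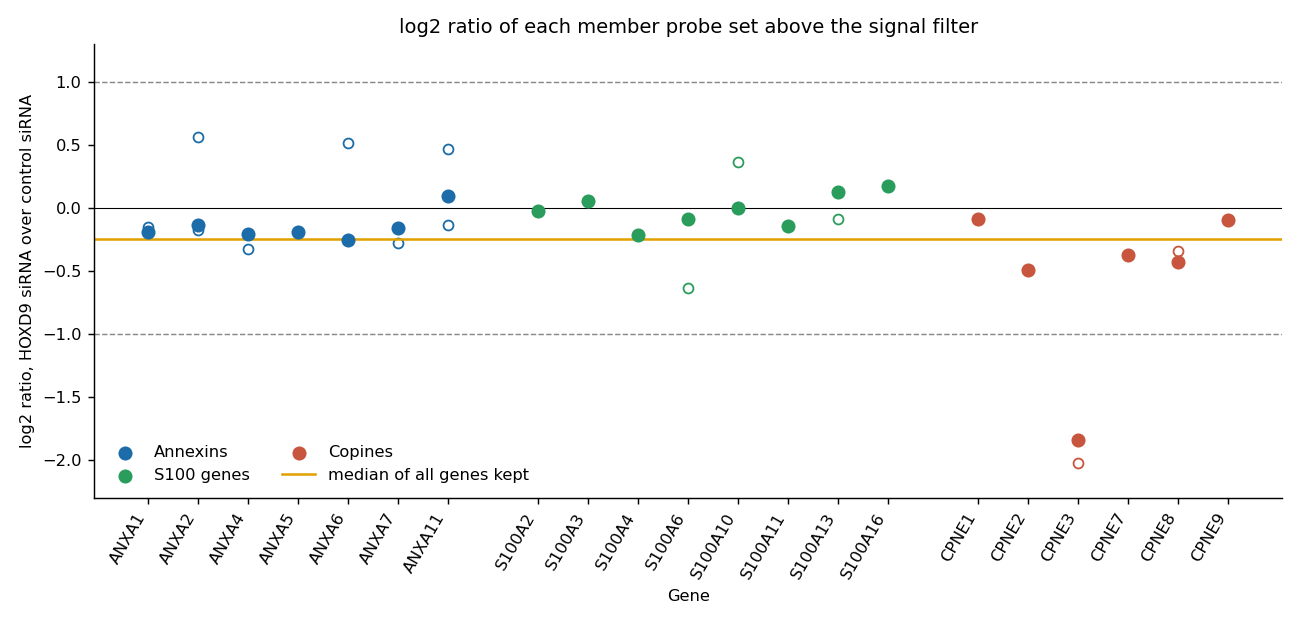
The log2 ratio, HOXD9 siRNA over control siRNA (y axis), of each of the 35 probe sets above the signal filter, by gene (x axis). Filled points are the brightest probe set of a gene and open points its others. Dashed lines mark 2-fold and the yellow line the median of all kept genes, -0.25, and both CPNE3 points lie near -2 apart from all others.

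Annexin transcripts differed little between the arrays. The 7 genes had a median log2 ratio of -0.19 and spanned -0.26 to 0.10 on their brightest probe sets, with 0 past 2-fold, and 6 of the 7 lay above the median of all genes. With centering, the median was 0.11 and all 7 were positive, whereas after quantile normalization or loess the median was 0.01 or -0.01. The direction of the family therefore turned with the scaling.

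ANXA1, a protein that glucocorticoids induce and that binds formyl peptide receptors, had signals of 8406 and 7378 (-0.19), and its dimmer probe set 58.7 and 52.9 (-0.15). ANXA2, the annexin that pairs with S100A10 at the plasma membrane, was read by 3 bright probe sets with log2 ratios of -0.14, -0.14 and -0.17. The first of them went from 8177 to 7436. These 3 are of a type that can bind several transcripts, and ANXA2 has processed pseudogenes, so a part of their signal may come from other transcripts. A probe set annotated to the pseudogene ANXA2P2 gave 3308 and 2338 (-0.50), and 1 annotated to SNU13 and ANXA2 together gave 2104 and 2187 (0.06). The brighter probe set shared by ANXA8 and ANXA8L1 gave 61.1 and 53.1 (-0.20).

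ANXA5, the phosphatidylserine-binding protein used as the probe in apoptosis staining, went from 3036 to 2656 (-0.19) on its only probe set. ANXA4 gave log2 ratios of -0.21 and -0.32 and ANXA7, first known as synexin for joining membranes, -0.16 and -0.28. The signals of ANXA4 were 1320 and 1142 on the brighter probe set, and those of ANXA7 1454 and 1304. ANXA6, whose core is duplicated, gave 685 and 573 (-0.26). In all of these the HOXD9 siRNA signal was the lower, and all but the -0.16 of ANXA7 exceeded 0.17, the SD for bright probe sets of 1 gene. That SD holds no error between arrays, and the median of all kept genes was -0.25. After centering, the brightest probe set of each was on the positive side.

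ANXA11, which tethers RNA granules to lysosomes, was the only annexin with the higher signal after HOXD9 silencing on its brightest probe set under all 4 scalings, at 1026 and 1097 (0.10, or 0.32 to 0.40 scaled). Another of its probe sets gave 58.0 and 52.6 (-0.14). Dim extra probe sets of ANXA2, ANXA6 and ANXA11 read higher than the bright ones did. They gave 22.9 and 33.7 for ANXA2 (0.56), 19.3 and 27.5 for ANXA6 (0.51), and 17.3 and 24.0 for ANXA11, which was at least 1.31-fold higher because its control siRNA signal lay within background. For ANXA2 and ANXA6 the bright and the dim probe sets thus differed in sign, and the dim ones lie where probe sets of a gene spread most.

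On their brightest probe sets S100 transcripts lay slightly above the general trend. The 8 genes had a median log2 ratio of -0.01, from -0.21 to 0.17, and 0 passed 2-fold. All 8 stood above the median of all kept genes, -0.25, on these probe sets. With its kept probe sets averaged, S100A6 was at -0.37 and so below that value. After centering, quantile normalization or loess the family median was 0.29, 0.21 or 0.20, and 8, 7 and 8 of the 8 were above 0. No test of these medians was possible.

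S100A10, the partner of ANXA2, whose EF-hands do not bind calcium, was nearly equal on the arrays, at 8896 and 8890 (log2 ratio -0.0009). Its other probe set gave 234 and 302 (0.37). S100A11, a partner of ANXA1, went from 4328 to 3917 (-0.14). S100A6, or calcyclin, gave 8825 and 8277 (-0.09) and on its dim probe set 49.8 and 32.0 (-0.64). On the brightest probe sets the log2 ratio of S100A10 lay within 0.17 of the -0.14 of ANXA2. That of S100A11 lay within 0.17 of the -0.19 of ANXA1. The 0.17 is the SD of bright probe sets of 1 gene and holds no error between arrays. It is no margin for comparing different genes. ANXA7 (-0.16) and ANXA11 (0.10) were also that close to S100A10, and every kept annexin except ANXA11 to S100A11. The closeness is thus not particular to partners, and dimmer probe sets were left out of it.

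S100A16, a widely expressed member, had the highest ratio of the family, from 3635 to 4103 (0.17). S100A13, which takes part in the release of FGF1, gave 612 and 669 (0.13) and on its dim probe set 34.4 and 32.3 (-0.09). S100A3 gave 162 and 168 (0.05) and S100A2 195 and 192 (-0.02). S100A4, known for its link with metastasis and cell motility, gave 34.3 and 29.6 (-0.21) and so lay not far above background. S100A3, S100A13 and S100A16 were higher under all 4 scalings on the brightest probe set, at 0.31 to 0.47 once scaled, whereas the sign of the other 5 depended on it.

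**Figure D5:**
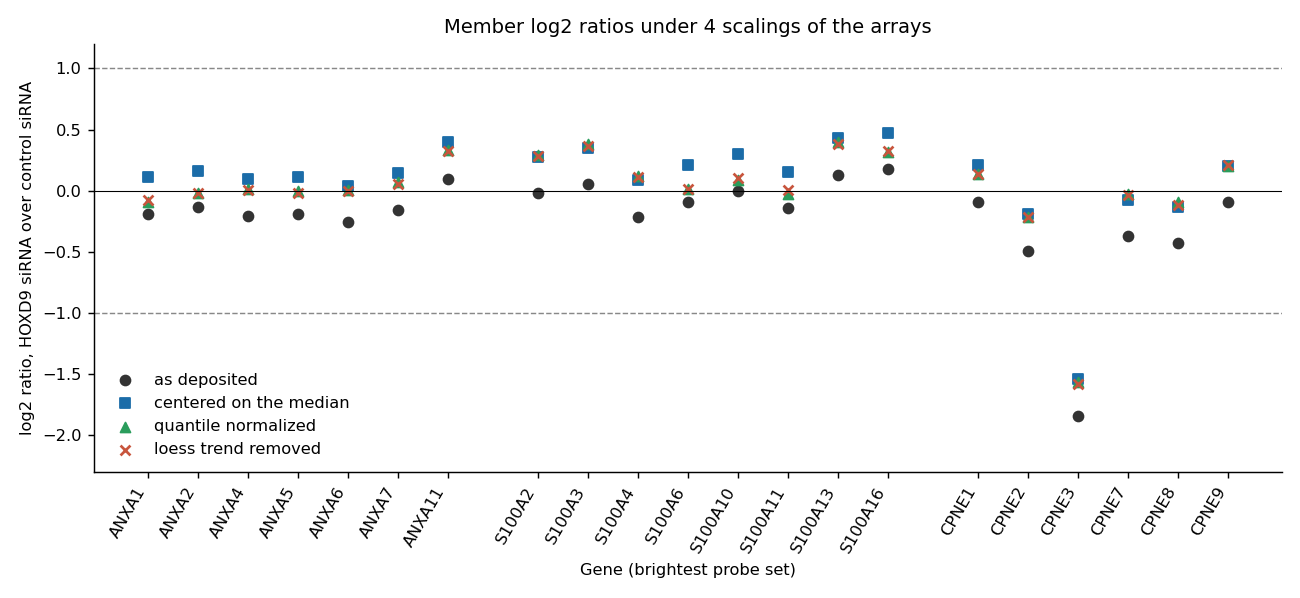
The log2 ratio of the brightest probe set of each member (y axis, HOXD9 siRNA over control siRNA) as deposited (circles), centered on the median (squares), quantile normalized (triangles) and with the loess trend removed (crosses), by gene (x axis). Dashed lines mark 2-fold. In 13 of the 21 genes the sign changed between scalings, 4 were lower under all of them (CPNE2, CPNE3, CPNE7 and CPNE8) and 4 higher (ANXA11, S100A3, S100A13 and S100A16).

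Among 14 partners and receptors of annexins and S100 proteins, 11 were kept, with 1 lower and 0 higher by more than 2-fold and a median log2 ratio of 0.005 (0.31 after centering), beside 4.95% lower and 0.516% higher among all kept genes. The lower one was S100PBP, a nuclear protein that binds S100P, from 279 to 107 (-1.37, or -1.07 after centering). Its second probe set gave 204 and 143 (-0.51). S100P itself was within background. IQGAP1, a scaffold of the actin cytoskeleton that binds S100P, went from 1785 to 1029 (-0.79), and its other probe sets gave -0.92 and -0.94. AHNAK, a large protein that binds the complex of ANXA2 and S100A10, gave 1309 and 1349 (0.04). FPR1, the formyl peptide receptor to which ANXA1 binds, gave 384 and 390 (0.02), and TLR4, a receptor for calprotectin, 35.9 and 49.9 (0.47). PLAT, the plasminogen activator that the ANXA2 complex can hold, gave 54.0 and 62.7 (0.22). AGER, the receptor RAGE of S100 proteins, and FPR2 stayed within background.

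Other proteins with the calcium-binding folds of these families were read for comparison. Of 48 other C2 domain genes measured, 30 were kept, with 2 lower, 0 higher and a median of -0.12 (0.18 after centering), so that the lower ones are near the 4.95% of all kept genes. The lower ones were the vesicle calcium sensor SYT1, from 91.8 to 30.3 (-1.60, or -1.30 after centering), and its relative SYT15, from 69.2 to 32.8 (-1.08, or -0.78 after centering). DYSF, the membrane repair protein dysferlin, gave 45.1 and 78.9 (0.81), which passed 2-fold after centering at 1.11. Of 32 other EF-hand genes 29 were kept and 0 passed 2-fold, with a median of -0.24 (0.06 after centering). The largest ratios there were those of MYL12A, a myosin light chain (-0.74), LCP1, an actin bundling protein (-0.65), and the centrin CETN3 (-0.49). The dimmer kept probe sets of MYL12A gave -0.38, -0.005 and 0.14.

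In the membrane repair and ESCRT-III list, which shares DYSF, MYOF and PDCD6 with those lists, 21 of 23 genes were kept. DYSF at 0.81 was the highest, and 0 passed 2-fold before centering, beside 4.95% lower and 0.516% higher among all kept genes. After centering DYSF alone passed, beside 2.31% lower and 1.17% higher. In a list of this size such counts say nothing particular. The median was -0.23 (0.07 after centering). CHMP2B, an ESCRT-III subunit, had a log2 ratio of -0.74 on its brightest probe set, and -0.39 and -0.33 on its others. VPS4A, the ATPase that takes ESCRT-III apart, gave -0.56. Of 7 further S100-type genes measured S100Z alone was kept, from 31.0 to 20.1 (-0.63).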

How the data were processed

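Array data of both conditions were used, namely 1 array of control U87 cells and 1 of HOXD9-silenced U87 cells. What the authors deposited is 1 linear intensity for each probe set. The methods state processing by the manufacturer's recommendations and analysis in GeneSpring, and the processing notes name GCOS. How signals were scaled is not given in the sources used here.

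From the deposited intensities, log2 ratios were computed for 54613 probe sets, 62 array controls being left out. Genes were named from the platform annotation and updated through Entrez numbers to RefSeq (GRCh38.p14), which 41037 of 41091 probe sets with 1 gene matched. More than 2-fold served as the threshold, as in the study. Named genes are all members with a kept probe set and, in other lists, those past 2-fold with up to 3 more of the largest ratios. A few further partners, neighbors and pseudogenes were chosen after their values were seen. Members and lists were chosen with earlier results of these data known. Alternatives were other scalings (centering, quantile normalization, loess with fraction 0.3), no filter, a stricter filter (70th percentile, signal 75.7), raising signals to the 20th percentile, dropping the probe set types _x_at and _s_at, which can bind several transcripts, and averaging probe sets. The code was checked on simulated data with planted differences larger than 2-fold. Their noise was smaller than the 0.41 between probe sets of 1 gene. The check therefore says nothing of how sure a 2-fold difference is here. The single array per condition limits the precision of every value. Tools were statsmodels 0.14.6 (loess), pandas 2.3.3 and numpy 2.4.6 under Python 3.11.15, with plots by matplotlib 3.10.9.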

Additional observations from a re-analysis of the deposited data

How the results depend on the processing

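CPNE3 stayed lower by more than 2-fold under the 7 alternatives that kept its probe sets, with a median log2 ratio from -1.94 to -1.64, and a difference from the median of the other copines of -1.63 to -1.53. With no filter, the stricter filter, the floor or averaging its own log2 ratio stayed at -1.94, so only the scalings moved it. Both of its probe sets end in _s_at. Leaving out this type therefore left no value for CPNE3, and the count of lower members fell from 1 to 0. Without a signal filter 8 of 36 members passed 2-fold downward and 2 upward, which adds genes whose signals lay within background on both arrays. The share over all genes without the filter is not given here, so these counts say nothing particular about the families. Family medians of annexins ranged from -0.19 to 0.11, of S100 genes from -0.12 to 0.29 and of copines from -0.43 to -0.06. Of 156 further values of single genes, 154 moved by less than 0.41, the pooled SD between probe sets of 1 gene. The other 2 were ANXA2 at 0.56 and ANXA6 at 0.51 when only their dim probe sets were left. This count is a weak check. Centering adds 0.30 to every value, and the filter and floor settings left each value they kept unchanged. A move below 0.41 can also change the sign, as it did between scalings in 13 of the 21 genes. With 1 array per condition no replicate could be left out and no paired analysis was possible because each condition has 1 sample. Signals near background limit what can be said of S100A4, CPNE9 and the undetected genes.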
